A study of Mus musculus with 12 samples.

Results

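The genes described here are 10 genes of the vascular endothelium, chosen by name: Pecam1, Cdh5, Kdr, Flt1, Emcn, Ehd3, Plvap, Tek, Tie1 and Vwf. Each had 1 row in both expression tables, 10 of 54532 genes listed. RNA-seq was performed on whole injured kidneys of C57BL/6 mice in 4 groups of 3. The groups were β-catenin-/- mice and their wild-type controls after unilateral ureteral obstruction (UUO, ligation of 1 ureter), and CD44-/- mice and their wild-type controls after ischemia-reperfusion of 1 kidney (UIRI, where the vessels of 1 kidney are clipped and released and the other kidney is removed later). In the β-catenin-/- mice, a floxed Ctnnb1 allele was deleted by Cre under the Ksp-cadherin (Cadherin-16) promoter, which is active in tubular epithelium and not in endothelium. The CD44-/- mice are described only by that genotype, all 12 mice underwent surgery, and the wild-type controls belong to 1 surgery each. Levels are in FPKM, fragments per kilobase of gene, scaled for sequencing depth, and the tables of the 2 surgeries were normalized separately.

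Endothelial cells line every vessel of the kidney. PECAM1 and VE-cadherin (Cdh5) hold them together at their junctions, and endomucin (Emcn) coats their surface. VEGF, made largely by podocytes and tubules, is bound by the receptors VEGFR2 (Kdr), which carries most of its signal, and VEGFR1 (Flt1), which binds it tightly and signals weakly. Tie2 (Tek) is the receptor of the angiopoietins and Tie1 is its partner. Plvap forms the diaphragms of fenestrae in peritubular capillaries and is scarce in mature glomerular capillaries, where Ehd3 is enriched, and Vwf is the clotting protein stored in endothelium of larger vessels.

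Between 15940405 and 20737443 reads were assigned to genes in each library. The targeted genes were examined first. Ctnnb1 was 84.7, 71.4 and 71.7 FPKM in β-catenin-/- kidneys and 91.2, 86.7 and 98.5 FPKM in their controls. The groups did not overlap, but the difference did not pass the test (limma, adjusted p = 0.189). Cd44 was 19.0, 11.97 and 13.9 FPKM in the libraries labelled CD44-/- and 19.9, 16.3 and 17.8 FPKM in their controls, so that the groups overlapped (limma, adjusted p = 0.339). The gene-level value sums all exons, and the part of Cd44 removed in these mice was not given in the sources used here. The Cd44 level therefore does not mark these libraries as knockouts, and they are called the libraries labelled CD44-/- throughout. Replicate 2 of them stood apart: its correlation with the other 2 libraries of its group (r = 0.968 and 0.974 over genes tested) was close to its correlation with the wild-type libraries (0.964 to 0.974). Replicate 3 of the β-catenin-/- group was the closest of its group to the wild-type, with r up to 0.960. Fold changes of the endothelial genes and counts of the lists are given with and without these libraries. Each was the closest of its group to the wild-type, so leaving it out favours larger differences.

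Promoter sequences are shown for both VEGF receptors, for Tek and for Emcn. Kdr and Flt1 bind the same ligand, Tek is the angiopoietin receptor and Emcn had the lowest ratio to the wild-type mean of the 9 genes tested after both surgeries. No promoter of Pecam1 was used here. Each is the 250 bases before the transcription start in RefSeq (GRCm38.p6), read 5′ to 3′ on the strand of the gene, and capitals mark GGAA on either strand, the core of the motif bound by ETS factors, a family with many endothelial members.
Kdr, chr5:75978456-75978705, minus strand: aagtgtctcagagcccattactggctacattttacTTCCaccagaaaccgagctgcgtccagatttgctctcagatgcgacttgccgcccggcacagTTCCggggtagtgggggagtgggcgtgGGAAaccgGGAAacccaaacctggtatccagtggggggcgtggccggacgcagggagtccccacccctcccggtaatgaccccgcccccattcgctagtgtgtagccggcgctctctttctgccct
Flt1, chr5:147726012-147726261, minus strand: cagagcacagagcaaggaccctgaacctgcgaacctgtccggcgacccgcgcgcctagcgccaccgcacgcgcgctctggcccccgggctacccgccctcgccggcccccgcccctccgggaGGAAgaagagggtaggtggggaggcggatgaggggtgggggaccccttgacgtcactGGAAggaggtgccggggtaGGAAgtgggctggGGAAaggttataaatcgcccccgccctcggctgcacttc
Tek, chr4:94739039-94739288, plus strand: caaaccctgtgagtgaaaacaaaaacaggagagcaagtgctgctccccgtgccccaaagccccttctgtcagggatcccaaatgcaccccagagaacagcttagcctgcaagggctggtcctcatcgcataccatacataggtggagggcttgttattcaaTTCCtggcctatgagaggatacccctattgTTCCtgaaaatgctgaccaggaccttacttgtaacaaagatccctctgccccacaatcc
Emcn, chr3:137340828-137341077, plus strand: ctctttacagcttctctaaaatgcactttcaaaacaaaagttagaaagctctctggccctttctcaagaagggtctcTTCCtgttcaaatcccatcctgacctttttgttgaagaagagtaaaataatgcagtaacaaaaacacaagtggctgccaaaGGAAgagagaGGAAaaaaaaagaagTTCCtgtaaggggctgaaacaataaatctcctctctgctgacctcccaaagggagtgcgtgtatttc

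The 2 VEGF receptor promoters held 4 GGAA matches each and were rich in G and C (61.6% for Kdr and 70.4% for Flt1), whereas the Emcn promoter also held 4 at 40.8% G and C. The Tek promoter held 2 matches. The table had promoters for 6 of the 10 genes (these 4, Ehd3 and Tie1), and all 6 contained GGAA, with 2 to 7 matches. This says little by itself, since 93.4% of 32851 mouse promoter windows of this length held GGAA on either strand, with a median of 3 matches. GATA, on either strand, was found in 3 of the 6 and in 53.6% of all windows. CAGCTG, which reads the same on both strands, was found in 0 of the 6 and in 13% of all windows.

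The first comparison asked how the endothelial genes differed between β-catenin-/- and wild-type kidneys after UUO. Pecam1 fell by 0.53 on the log2 scale and was the only gene of the 10 to pass the test. The other 8 genes tested all had lower means in β-catenin-/- kidneys, from 0.93 times the wild-type mean for Tie1 to 0.62 times for Emcn, without passing it. Vwf was too low to be tested. Fold changes are differences of mean log2(FPKM + 1), and adjusted p-values come from limma with Benjamini-Hochberg adjustment over all genes that averaged 0.5 FPKM or more, called at 0.05. In this comparison 4.36% of 16166 genes were called lower and 6.21% higher, and 48.9% had a log2 fold change below 0. In whole-kidney RNA, fewer endothelial cells, less RNA of these genes per cell and a changed share of other cells cannot be told apart.

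**Figure D1:**
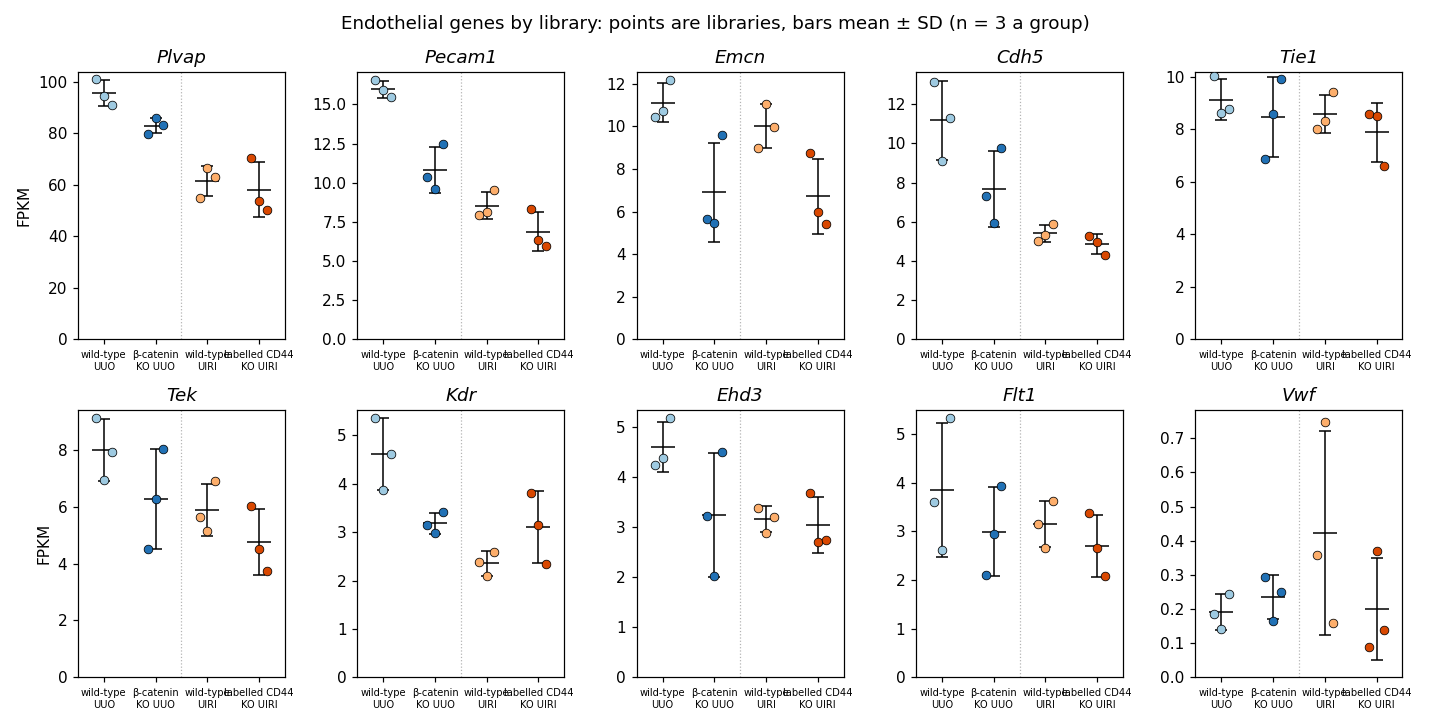
Level of each of the 10 endothelial genes in FPKM (vertical axis, from 0, its own scale in each panel) by group (horizontal axis), with points for the 12 libraries and bars for mean ± SD. Pecam1, Emcn, Kdr and Plvap were lower in all 3 β-catenin-/- kidneys than in any wild-type UUO kidney, and in the UIRI groups Emcn was lower in all 3 libraries labelled CD44-/-.

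Among the junctional and surface genes, Pecam1 (ENSMUSG00000020717, chr11:106654217-106750628, GRCm38) measured 10.3, 9.63 and 12.48 FPKM in β-catenin-/- kidneys and 16.5, 15.9 and 15.5 FPKM in wild-type kidneys. Every knockout value lay below every wild-type value. The means were 10.8 ± 1.48 and 15.98 ± 0.533 FPKM (SD, n = 3), and the log2 fold change was -0.53 (SE 0.12, limma, adjusted p = 0.0355). The direction was negative in all 15 alternative analyses and the call was made in 8 of them, with adjusted p between 0.0165 and 0.11. Among the 8, median-of-ratios scaling left the values as deposited and could only repeat the call. It was lost when any 1 of 5 libraries was left out (β-catenin-/- replicate 1 or 2, or any wild-type replicate), and without β-catenin-/- replicate 3 it was kept (limma, adjusted p = 0.0165).

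Cdh5 (chr8:104101625-104144511) was 7.33, 5.95 and 9.76 FPKM against 13.2, 9.10 and 11.3 FPKM in the wild-type. β-catenin-/- replicate 3 exceeded 1 wild-type kidney, and the log2 fold change of -0.50 (SE 0.19) did not pass (limma, adjusted p = 0.138). Emcn (chr3:137341067-137432185) was 5.66, 5.47 and 9.58 FPKM against 10.5, 10.7 and 12.2 FPKM. The groups did not overlap, yet replicate 3 lay far above the other 2 knockout kidneys, and the log2 fold change of -0.65 (SE 0.20) did not pass (limma, adjusted p = 0.0774). Without replicate 3, Emcn was called at a log2 fold change of -0.88 (limma, adjusted p = 0.00985).

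Of the VEGF receptors, Kdr (chr5:75932827-75978458) was 3.15, 2.99 and 3.42 FPKM in β-catenin-/- kidneys and 5.35, 3.87 and 4.62 FPKM in wild-type kidneys. The knockout values were tightly grouped and all lower, with a log2 fold change of -0.42 (SE 0.13) that did not pass (limma, adjusted p = 0.0809). Flt1 (chr5:147561604-147726011), on the same chromosome, was 2.11, 2.94 and 3.94 FPKM against 3.61, 2.61 and 5.33 FPKM. Its groups overlapped widely, and the 95% confidence interval of its log2 fold change ran from -0.84 to 0.31.

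Both Tie receptors overlapped between the groups. Tek (chr4:94739289-94874976) was 4.50, 6.27 and 8.03 FPKM against 9.11, 6.93 and 7.93 FPKM, with β-catenin-/- replicate 3 above 2 of the wild-type kidneys. Its log2 fold change was -0.33 (SE 0.19, limma, adjusted p = 0.297). Tie1 (chr4:118471191-118490061) was 6.85, 8.59 and 9.90 FPKM against 10.01, 8.61 and 8.76 FPKM, with a log2 fold change of -0.11 (95% confidence interval -0.45 to 0.23). It was the smallest difference among the 9 genes tested, and its sign turned when β-catenin-/- replicate 1 was left out.

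Of the genes that mark capillary beds, Plvap (chr8:71497765-71511752) was by far the highest in FPKM, at 79.8, 85.8 and 83.3 in β-catenin-/- kidneys and 101, 94.3 and 91.1 in wild-type kidneys. The knockout kidneys were all lower, but by a log2 fold change of only -0.20 (SE 0.11, limma, adjusted p = 0.275). Ehd3 (chr17:73804134-73832094) was 3.22, 2.02 and 4.49 FPKM against 4.24, 4.37 and 5.17 FPKM. The values of β-catenin-/- replicates 1 and 2 lay below every wild-type value and that of replicate 3 did not, and the log2 fold change of -0.44 (SE 0.21) did not pass (limma, adjusted p = 0.221).

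Vwf (chr6:125546774-125686679) was the lowest of the 10 genes. It measured 0.293, 0.164 and 0.249 FPKM in β-catenin-/- kidneys and 0.186, 0.143 and 0.245 FPKM in wild-type kidneys, from 42 to 81 reads in each. The exact Poisson 95% intervals of the highest knockout value (0.233 to 0.364) and the highest wild-type value (0.190 to 0.312) overlapped. These intervals cover counting error only.

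Counted together, 4 of the 10 genes (Pecam1, Emcn, Kdr and Plvap) were lower in every β-catenin-/- kidney than in every wild-type kidney, against 15.9% of all genes tested, and 0 were higher in every one, against 19.6%. Of the 9 genes tested, 4 had an unadjusted p under 0.05 and a lower level (Pecam1, Emcn, Kdr and Cdh5), against 12.9% of all genes. The median log2 fold change of the 9 was -0.42, beside 0.01 over all genes. When FPKM was rescaled to the same total in every library (TPM), the median of the 9 became -0.68 and that of all genes -0.19, and the split of calls over all genes moved from 1004 higher and 705 lower to 578 higher and 1178 lower. Without β-catenin-/- replicate 3, the median of the 9 was -0.50 and 2 genes were called, Pecam1 and Emcn. The log2 fold changes of the others were then -0.66 for Cdh5, -0.64 for Ehd3, -0.50 for Tek, -0.46 for Kdr, -0.43 for Flt1, -0.22 for Tie1 and -0.20 for Plvap.

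**Figure D2:**
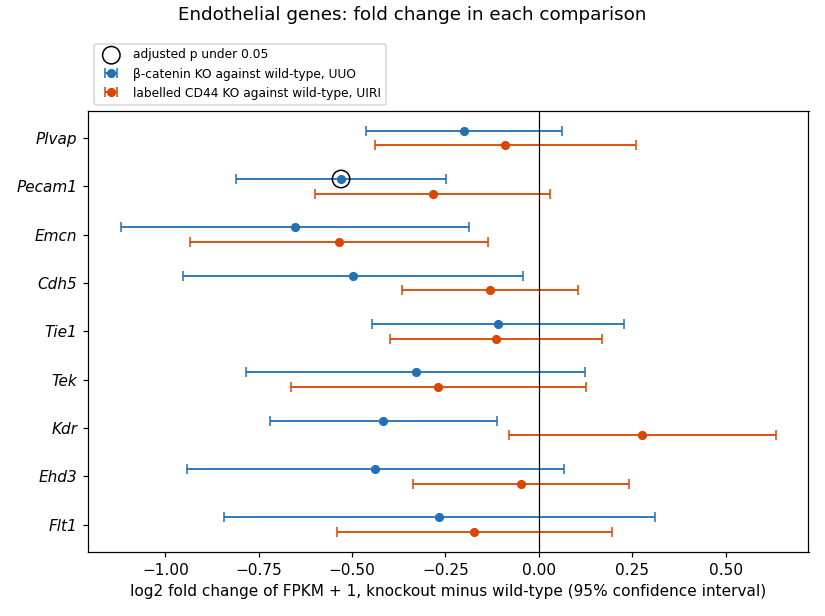
Log2 fold change of FPKM + 1, knockout minus wild-type (horizontal axis), with its 95% confidence interval for the 9 endothelial genes tested (vertical axis), in the UUO comparison (blue) and the UIRI comparison (orange), with a ring around the value at an adjusted p under 0.05. All 9 UUO values lie below 0 and only Pecam1 is ringed, while Kdr lies at -0.42 in UUO and at 0.28 in UIRI.

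The second comparison set the libraries labelled CD44-/- against wild-type kidneys after UIRI. The test called 0 of the 9 endothelial genes. By limma, 1 of them, Emcn, had an unadjusted p under 0.05, and voom on recovered reads also called 0. Emcn was the gene with the largest difference, 0.67 times the wild-type mean, and Kdr was the only gene tested with a higher mean, 1.32 times. Over all 16113 genes tested, 2.19% were called lower and 4.02% higher, and 49.8% had a log2 fold change below 0. The count over all genes depended strongly on which library was left out, and it rose to 1417 higher and 763 lower without replicate 2 of the libraries labelled CD44-/-, whereas none of the 9 endothelial genes was called then. With any other library left out, at most 5 genes were called in each direction, and the calls after UIRI given below use all 6 libraries.

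Emcn was 8.75, 5.96 and 5.43 FPKM in the libraries labelled CD44-/- and 9.01, 11.1 and 9.997 FPKM in the wild-type. The groups did not overlap, although replicate 1 lay close to the lowest wild-type value, and the log2 fold change was -0.53 (SE 0.17, limma, adjusted p = 0.1). It was -0.47 without replicate 2 (limma, adjusted p = 0.152). Pecam1 was 8.30, 6.36 and 5.97 FPKM against 7.96, 8.14 and 9.53 FPKM, with replicate 1 inside the wild-type range and a log2 fold change of -0.28 (SE 0.13, limma, adjusted p = 0.223). Cdh5 was 5.29, 4.96 and 4.32 FPKM against 5.02, 5.34 and 5.87 FPKM, a log2 fold change of -0.13 with a 95% confidence interval from -0.37 to 0.11.

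Kdr was 3.82, 3.15 and 2.34 FPKM in the libraries labelled CD44-/- and 2.39, 2.09 and 2.59 FPKM in the wild-type. Replicates 1 and 2 exceeded all wild-type kidneys and replicate 3 did not, and the log2 fold change of 0.28 (SE 0.15) did not pass (limma, adjusted p = 0.286). It was 0.26 without replicate 2. Flt1, the other VEGF receptor, was 3.37, 2.65 and 2.08 FPKM against 3.16, 2.67 and 3.63 FPKM, with a log2 fold change of -0.17 (95% confidence interval -0.54 to 0.20).

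Tek was 6.01, 4.50 and 3.75 FPKM against 5.62, 5.13 and 6.89 FPKM, and Tie1 was 8.59, 8.48 and 6.58 FPKM against 8.02, 8.30 and 9.41 FPKM. Both sets of values overlapped, with log2 fold changes of -0.27 for Tek and -0.11 for Tie1. Plvap was 70.2, 53.7 and 50.3 FPKM against 54.8, 66.4 and 63.0 FPKM, so that the labelled replicate 1 was the highest of the 6 kidneys and replicates 2 and 3 the lowest. Ehd3 was 3.68, 2.69 and 2.74 FPKM against 3.38, 2.88 and 3.21 FPKM, with a log2 fold change of -0.05 (95% confidence interval -0.34 to 0.24).

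Vwf varied widely among the UIRI kidneys. It was 0.0899, 0.370 and 0.139 FPKM in the libraries labelled CD44-/- and 0.360, 0.748 and 0.160 FPKM in the wild-type, from 25 to 221 reads. The Poisson 95% interval of wild-type replicate 2 (0.652 to 0.853) lay above that of wild-type replicate 3 (0.119 to 0.211), so that kidneys of 1 group differed by more than counting error.

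Counted together, 1 of the 10 genes (Emcn) was lower in every library labelled CD44-/- than in every wild-type kidney, against 14.5% of all genes tested, and 0 were higher in every one, against 19.1%. Of the 9 genes tested, 1 had an unadjusted p under 0.05 and a lower level, against 11.2% of all genes, and 8 had a log2 fold change below 0. The median log2 fold change of the 9 was -0.13, beside 0.00081 over all genes. On the TPM scale it was -0.27, beside -0.12 over all genes, and the split of calls over all genes moved from 648 higher and 353 lower to 220 higher and 473 lower. Without replicate 2 of the libraries labelled CD44-/-, the median was -0.17, and the log2 fold changes not yet given were -0.24 for Pecam1, -0.15 for Cdh5, -0.17 for Flt1, -0.25 for Tek, -0.17 for Tie1, -0.04 for Plvap and 0.01 for Ehd3.

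The difference of both within-surgery fold changes, β-catenin-/- against wild-type and labelled CD44-/- against wild-type, was tested as well. By limma, 0 of the 9 genes were called, 1 (Kdr) had an unadjusted p under 0.05, and voom also called 0. Over all 16193 genes tested, 0.00618% were called, in either direction, and 13.6% had an unadjusted p under 0.05. Kdr had the largest difference, -0.69 on the log2 scale (SE 0.20, 95% confidence interval -1.13 to -0.25, unadjusted p = 0.00526, limma, adjusted p = 0.21). It was negative in all 21 alternative analyses, between -0.90 and -0.57, with adjusted p from 0.161 to 0.426. Among the 21, median-of-ratios scaling left the values as deposited and could only repeat the result. For the other 8 genes the intervals of the difference included 0, and they ranged from a difference of -0.39 for Ehd3 (95% confidence interval -0.97 to 0.19) to 0.0037 for Tie1 (-0.42 to 0.42), so that differences of moderate size in either direction remain possible.

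The order of the 10 levels, which FPKM allows because it is per length, was similar in the 4 groups. Plvap was the highest in each, with a mean of 95.5 ± 5.12 FPKM in wild-type UUO kidneys, 83.0 ± 3.01 in β-catenin-/- kidneys, 61.4 ± 5.95 in wild-type UIRI kidneys and 58.1 ± 10.6 in the libraries labelled CD44-/- (SD, n = 3). Vwf was the lowest in each, between 0.191 and 0.423 FPKM on average, and both ends of the order were apart from their neighbours in every group. In wild-type UUO kidneys, Pecam1 (15.98 FPKM) stood second and apart from Cdh5 (11.2) and Emcn (11.1), which overlapped. Tie1 (9.13) and Tek (7.99) overlapped below them, and so did Kdr (4.61), Ehd3 (4.59) and Flt1 (3.85). In β-catenin-/- kidneys the 5 genes from Pecam1 (10.8) down to Tek (6.27) each overlapped with the next. In wild-type UIRI kidneys Emcn (10.02) stood second but overlapped with Tie1 (8.58), and Kdr (2.36) was below Flt1 (3.15) in every library. In the libraries labelled CD44-/-, Kdr (3.10), Ehd3 (3.04) and Flt1 (2.70) overlapped.

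Between the surgeries the levels are given side by side, with no test, since the tables were scaled apart. The wild-type mean after UUO was above that after UIRI for 9 of the 10 genes, and 6 of them (Pecam1, Cdh5, Kdr, Ehd3, Plvap and Tek) were higher in all 3 wild-type UUO kidneys than in all 3 wild-type UIRI kidneys. The ratio of the wild-type means was 2.07 for Cdh5, 1.96 for Kdr and 1.87 for Pecam1, but 1.11 for Emcn and 1.06 for Tie1. On the TPM scale 7 of the 10 were higher in every wild-type UUO kidney, Emcn being added. The wild-type UUO group had the highest mean of the 4 groups for 9 genes (Vwf being highest in wild-type UIRI kidneys), and the libraries labelled CD44-/- had the lowest mean for 8. The same counts between the surgeries were not made over all genes, so they do not show a difference particular to the endothelial genes. The summed FPKM of the 10 was 123 to 145 in β-catenin-/- kidneys and 157 to 174 in their controls, without overlap. It was 83.7 to 118 in the libraries labelled CD44-/- and 99.8 to 114 in their controls, with overlap.

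The share of each gene in that sum does not depend on the scaling of a library. Plvap alone gave 62.7 ± 4.69% of the sum in β-catenin-/- kidneys and 58.2 ± 2.02% in their controls. The share of Kdr was 3.23, 3.40 and 2.79% in the libraries labelled CD44-/- and 2.40, 1.85 and 2.26% in their controls, higher in every library. The share of Emcn was 7.41, 6.42 and 6.49% against 9.03, 9.80 and 8.75%, lower in every library. The share of Pecam1 was lower without overlap in both comparisons, 8.14 ± 0.63% against 9.74 ± 0.37% after UUO and 7.01 ± 0.14% against 7.85 ± 0.57% after UIRI. In β-catenin-/- kidneys the share of Kdr was 2.55, 2.30 and 2.36% against 3.08, 2.47 and 2.85%, which overlapped. Each difference without overlap had p = 0.1 in an exact two-sided permutation test, the smallest that 3 against 3 can give, and after adjustment over the 10 genes the lowest p was 0.4 after UUO and 0.333 after UIRI, so none could pass. With Plvap taken out of the sum, a choice made after seeing the data, Kdr was still higher without overlap after UIRI (7.68 ± 0.58% against 4.96 ± 0.42%) and Emcn still lower (16.6 ± 1.54% against 21.1 ± 2.37%), whereas the shares of Pecam1 overlapped in both comparisons. In β-catenin-/- kidneys Tie1 (17.1 ± 2.09% against 13.3 ± 0.84%) and Vwf (0.483 ± 0.166% against 0.277 ± 0.061%) were then higher without overlap, each again at an exact permutation p of 0.1.

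**Figure D3:**
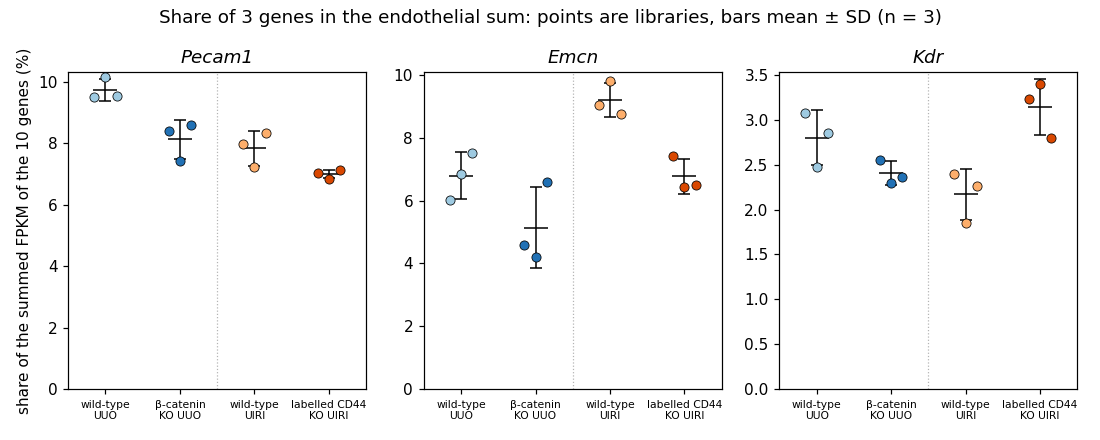
Share of Pecam1, Emcn and Kdr in the summed FPKM of the 10 endothelial genes in percent (vertical axis, from 0, its own scale in each panel) by group (horizontal axis), with points for libraries and bars for mean ± SD (n = 3). After UIRI the share of Kdr is higher and that of Emcn lower in all 3 libraries labelled CD44-/-, and the share of Pecam1 is lower in the β-catenin-/- kidneys and in the libraries labelled CD44-/- than in their controls.

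How far the genes varied together among kidneys of 1 group was described by Pearson's r of the deviations of log2(FPKM + 1) from the group means, over 12 libraries that share the same preparation. All 36 pairs of the 9 genes other than Vwf had a positive r, with a median of 0.65, and 29 were over 0.5. Pairs of other genes were not computed, so these values do not show a likeness particular to endothelial genes. The 2 Tie receptors, Tek and Tie1, were the most alike (r = 0.92), and Plvap and Ehd3, of peritubular and glomerular capillaries, were the least alike (0.11). Kdr followed Tek (0.76) more closely than the other VEGF receptor Flt1 (0.64). Vwf had r between -0.39 and 0.05 with the others.

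**Figure D4:**
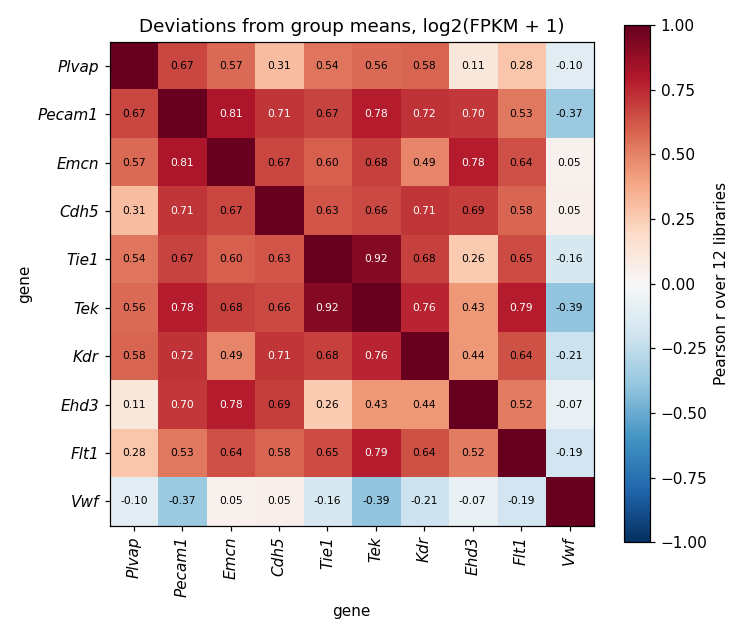
Pearson's r between each pair of the 10 endothelial genes (both axes), computed from deviations of log2(FPKM + 1) from the group means over 12 libraries, coloured from -1 (blue) to 1 (red). The block of 9 genes is positive throughout, with Tek and Tie1 at 0.92, and Vwf stands outside it.

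Across both groups of a table, Kdr followed the mean of the 10 genes, Vwf included, after UUO (r = 0.89, 6 libraries). It followed that mean much less after UIRI (r = 0.23), while Pecam1 followed it in both (0.92 and 0.94). These values include the gene itself in the mean. Genes that averaged 1 FPKM or more in both tables numbered 13595, including the endothelial genes that did so. The 8 other genes most like the mean, ranked by the lower of the r of the 2 tables, were Zfp595 (lower r = 0.93), Lyst (0.90), Ralgapa1 (0.90), Pla2r1 (0.89), Rbm26 (0.89), Rasgrp2 (0.88), Kdm7a (0.88) and Zfp658 (0.88). None of them was among the other endothelial genes listed here.

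The wider pathway was read from lists of genes. Beside the list counts, 4.36% of all genes tested were called lower and 6.21% higher after UUO. After UIRI these shares were 2.19% and 4.02%, so 1 call in a short list says little. Among VEGF ligands and further VEGF receptors, 1 of 7 tested rose and 1 fell in β-catenin-/- kidneys. Vegfb, a ligand of VEGFR1, rose from 18.8 ± 1.64 to 38.0 ± 7.32 FPKM, a log2 fold change of 0.97 (limma, adjusted p = 0.0159). Nrp2, a VEGF coreceptor found on veins and lymphatics, fell from 5.64 ± 0.777 to 2.49 ± 0.395 FPKM, a log2 fold change of -0.93 (limma, adjusted p = 0.0138). After UIRI 0 of the 7 passed limma, 2 had an unadjusted p under 0.05, and Vegfb was at 34.2 ± 4.96 FPKM against 26.3 ± 1.83 (limma, adjusted p = 0.112). The median log2 fold change of this list was -0.22 after UUO and -0.02 after UIRI.

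Of the angiopoietins and Ptprb, a phosphatase that acts on Tie2, 0 of 3 tested passed in either comparison. By limma, 2 had an unadjusted p under 0.05 after UUO and 1 after UIRI. Angpt2, which acts mostly as an antagonist of Tie2, was 1.98 ± 0.521 against 3.64 ± 1.33 FPKM after UUO and 1.09 ± 0.247 against 2.44 ± 0.904 FPKM after UIRI, in both without overlap. Ptprb was 3.83 ± 1.52 against 4.38 ± 0.999 FPKM after UUO and 2.31 ± 0.355 against 2.58 ± 0.492 FPKM after UIRI.

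Of 21 other pan-endothelial genes tested, 3 fell and 0 rose in each comparison. In β-catenin-/- kidneys Ecscr, an endothelial surface protein, was 7.80 ± 0.54 against 17.6 ± 4.43 FPKM (limma, adjusted p = 0.0166), and Calcrl, the receptor of adrenomedullin, was 3.27 ± 1.05 against 7.18 ± 0.345 FPKM (limma, adjusted p = 0.0202). Endoglin (Eng), a TGF-β coreceptor also found on macrophages and stromal cells, was 37.2 ± 7.24 against 68.7 ± 10.4 FPKM (limma, adjusted p = 0.026). Calcrl fell in the libraries labelled CD44-/- as well, 2.67 ± 0.264 against 5.38 ± 0.825 FPKM (limma, adjusted p = 0.0267), while Ecscr (limma, adjusted p = 0.0507) and Eng (0.41) did not pass there. The other 2 genes that fell there were Cd34 and Cd93, named after their values were seen. Over all alternatives, the highest adjusted p after UIRI was 0.108 for Calcrl, 0.147 for Cd34 and 0.166 for Cd93 (limma). With the replicate block, 0 of all genes were called after UIRI. The median log2 fold change of the 21 was -0.25 after UUO and -0.23 after UIRI, with 17 and 20 of them below 0. Of all genes tested, 48.9% and 49.8% were below 0.

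Of 11 endothelial transcription factors tested, 2 fell and 1 rose in β-catenin-/- kidneys. The ETS factors Ets1 (6.07 ± 0.671 against 11.2 ± 1.59 FPKM, limma, adjusted p = 0.019) and Fli1 (3.46 ± 0.463 against 6.33 ± 0.753 FPKM, limma, adjusted p = 0.0196), both also expressed in leukocytes, fell. Klf4, which is also expressed in epithelium, rose from 6.796 ± 1.31 to 11.1 ± 1.4 FPKM (limma, adjusted p = 0.0399). The endothelial list genes called after UUO (Vegfb, Nrp2, Ecscr, Calcrl, Eng, Ets1, Fli1, Klf4 and Pdpn) each lost the call with at least 1 library left out, which was wild-type replicate 2 for all but Ecscr and β-catenin-/- replicate 2 for Ecscr, and the highest adjusted p over all alternatives was between 0.0533 for Ecscr and 0.175 for Klf4. After UIRI 0 of the 11 passed limma and 2 had an unadjusted p under 0.05. Of the arterial, venous and lymphatic genes, 1 of 6 tested fell after UUO, Pdpn (limma, adjusted p = 0.0181), which podocytes and fibroblasts also express, and 0 of 7 passed after UIRI, with 1 at an unadjusted p under 0.05. Of the endothelial activation genes, 0 of 3 and 0 of 2 passed, with 0 and 1 at an unadjusted p under 0.05. The adhesion molecules Vcam1 and Icam1 were 115 ± 40.0 against 148 ± 39.5 FPKM and 39.4 ± 9.45 against 39.8 ± 7.78 FPKM after UUO. After UIRI they were 49.6 ± 3.33 against 66.1 ± 5.90 FPKM and 24.1 ± 0.606 against 21.8 ± 2.62 FPKM.

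**Figure D5:**
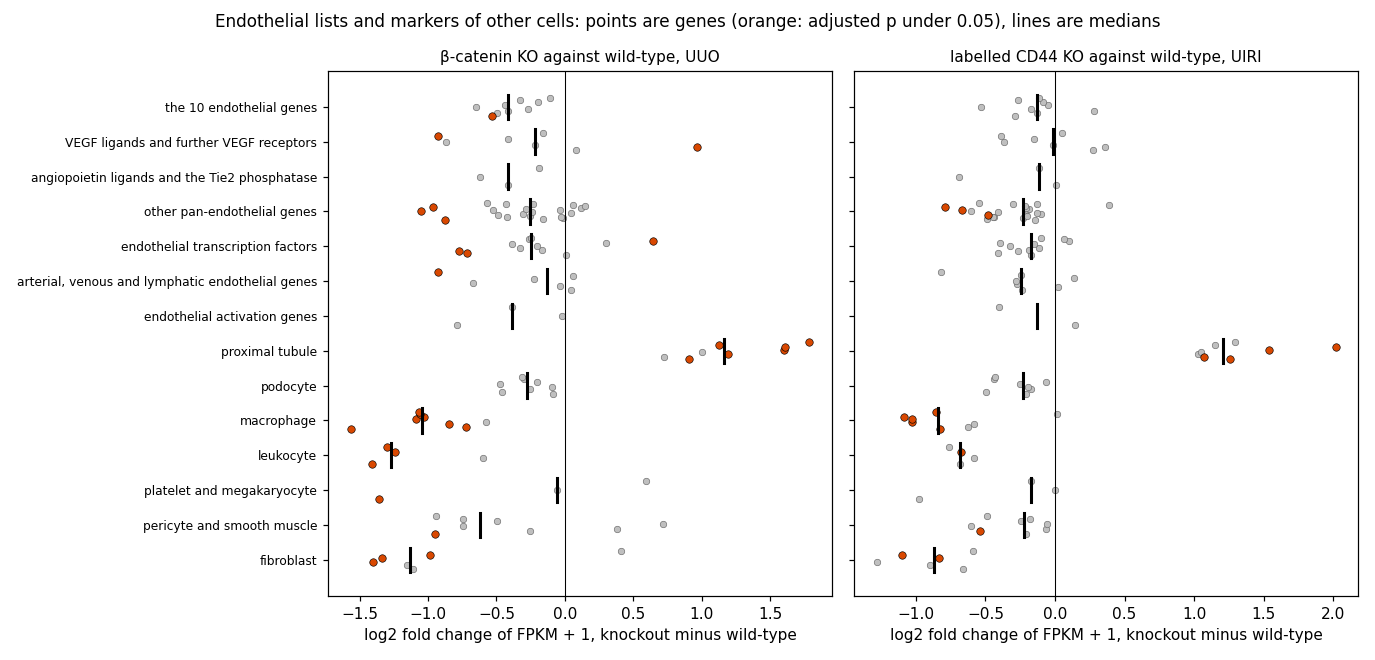
Log2 fold change of FPKM + 1, knockout minus wild-type (horizontal axes), for the tested genes of each endothelial list and of marker lists of other kidney cells (vertical axis), after UUO (left) and UIRI (right), with points for genes, orange at an adjusted p under 0.05, and lines for list medians. The endothelial medians lie between -0.42 and -0.02, while proximal tubule medians lie above 1 and macrophage, leukocyte and fibroblast medians lie below those of the endothelial lists. Podocyte (-0.28 and -0.23) and platelet medians (-0.06 and -0.18) lie within the endothelial range. The pericyte and smooth muscle median lies below it after UUO (-0.62) and within it after UIRI (-0.23).

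Markers of other cells moved along with these results. Macrophage markers fell for 7 of 8 genes after UUO and 5 of 8 after UIRI, with a summed level of 328 to 422 against 602 to 857 FPKM and of 462 to 681 against 1074 to 1105 FPKM. Leukocyte markers fell for 3 of 4 tested after UUO (sum 5.93 to 8.78 against 17.6 to 31.4 FPKM) and 1 of 4 after UIRI (6.29 to 8.43 against 11.7 to 18.2 FPKM). Ptprc, the pan-leukocyte CD45, was 2.86 ± 0.623 against 9.21 ± 1.21 FPKM after UUO (limma, adjusted p = 0.0086). This matters for Pecam1, which leukocytes and platelets also carry, and the part of those cells in its fall was not tested. Of the platelet markers, Pf4 fell after UUO (4.38 ± 2.08 against 12.2 ± 1.79 FPKM, limma, adjusted p = 0.0225), 1 of 3 tested. Itga2b, integrin αIIb, was higher in every β-catenin-/- kidney (1.60 ± 0.387 against 0.711 ± 0.095 FPKM) without passing (limma, adjusted p = 0.053), and Ppbp was 0.716 ± 0.262 against 0.953 ± 1.1 FPKM, while 4 of the 7 (Gp1ba, Gp9, Gp5 and Gp6) were below the filter. After UIRI 0 of the 3 passed, with 1 at an unadjusted p under 0.05. The summed platelet markers, most of them Pf4, were 5.72 to 10.1 against 11.9 to 17.4 FPKM after UUO and 9.13 to 17.0 against 14.8 to 28.0 FPKM after UIRI.

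Proximal tubule markers rose for 6 of 8 genes after UUO (sum 1346 to 2092 against 563 to 647 FPKM) and 4 of 8 after UIRI (828 to 1856 against 450 to 586 FPKM). Fibroblast markers fell for 3 of 6 and 2 of 6, and pericyte and smooth muscle markers for 1 of 8 in each. Podocyte markers, from the cells that face the glomerular endothelium, passed for 0 of 8 in both, with 3 and 0 at an unadjusted p under 0.05 by limma, and their summed level was 87.1 to 98.7 against 91.7 to 132 FPKM after UUO and 67.7 to 87.4 against 89.8 to 101 FPKM after UIRI. All 8 podocyte markers had a log2 fold change below 0 in both comparisons. So did 6 of 8 pericyte and smooth muscle markers after UUO and all 8 after UIRI. A small fall was therefore not particular to the endothelial genes. The part of these marker shifts in the endothelial values was not tested.

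The list counts were repeated without β-catenin-/- replicate 3 and without replicate 2 labelled CD44-/-, each the closest of its group to the wild-type. Leaving these libraries out favours larger differences, so the added calls are no check of the results. Over all genes, calls rose from 1004 higher and 705 lower to 1631 and 818 of 16207 without β-catenin-/- replicate 3. They rose from 648 and 353 to 1417 and 763 of 16128 without replicate 2 labelled CD44-/-. Without β-catenin-/- replicate 3, the other pan-endothelial genes that fell were 6 of 21 (Eng, Robo4, Ecscr, Cd93, Calcrl and Adgrl4), and the call of Klf4 was lost while those of Vegfb, Nrp2, Ets1, Fli1 and Pdpn were made again. Proximal tubule markers then rose for 6 of 8 and macrophage markers fell for 7 of 8, leukocyte markers fell for 2 of 4, fibroblast markers for 2 of 6, and Itga2b rose. Without replicate 2 labelled CD44-/-, the pan-endothelial genes that fell were 4 of 21 (Cd34, Ecscr, Cd93 and Calcrl), and Fli1, Klf2 and Pdpn fell as well. Proximal tubule markers then rose for 7 of 8, and macrophage markers fell for 7 of 8, leukocyte markers for 2 of 4, fibroblast markers for 4 of 6, pericyte and smooth muscle markers for 2 of 8 and platelet markers for 1 of 3 (Pf4).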

How the data were processed

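Whole-kidney RNA of 12 mice (4 groups of 3) was sequenced. The authors deposited 2 tables of FPKM, 1 for each surgery, made per the labels with HISAT2 2.0.5, featureCounts 1.5.0-p3 and DESeq2 1.20.0 on GRCm38. Wild-type columns carried the same names in both tables and were assigned by the knockout beside them. FPKM multiplied by gene length and by a depth factor found for each library gave whole reads for 100% of values within 0.01, and these recovered reads gave the depth (15940405 to 20737443 per library) and the voom alternative. Genes averaging 0.5 FPKM or more in the libraries of a fit were tested within each table with limma 3.58.1 (R 4.3.3, eBayes with a trend) on log2(FPKM + 1), two-sided, with Benjamini-Hochberg adjustment at 0.05. FPKM fold changes on this scale understate those of low genes. The difference of both effects was fitted over 12 libraries with 1 mean per group. Shares were compared with exact permutation tests. The procedure was tested on simulated data. The changed genes in it differed by more than any endothelial gene tested here. It therefore does not show how often differences as small as these would be called. The labels name separate mice, and no 2 replicates agreed within sampling noise. From each gene list, up to 3 called genes with the smallest p in either comparison are named, otherwise the 2 with the highest mean FPKM. The endothelial genes and lists were chosen with earlier results of these data known. Ccl21a, with 2 rows, was left out. As alternatives, the pseudocount was set to 0.1 or 0.01, the filter was dropped or raised to 1 FPKM, and the others were TPM, median-of-ratios scaling, no trend, voom, the replicate number as a block and leaving out each library.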

Additional observations from a re-analysis of the deposited data

How the results depend on the processing

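The count of endothelial genes called after UUO was 1, and it became 0 without a filter, 2 with voom on recovered reads and 0 with the replicate block. Leaving out 1 library at a time gave 0 to 2. Pecam1 then lost its call at adjusted p = 0.0677 without a filter and 0.0561 with the block (limma). After UIRI the count stayed at 0 in all 15 alternatives, and for the difference of effects in all 21. Over all genes after UUO, no filter gave 280 higher and 193 lower, TPM 578 and 1178, and leaving out 1 library 130 to 1631 higher and 98 to 818 lower (lowest without wild-type replicate 2, highest without β-catenin-/- replicate 3). Over all genes after UIRI, no filter gave 43 higher and 20 lower, TPM 220 higher, voom 1044 and 667, the replicate block 0 and 0, and leaving out 1 library 0 to 1417 higher and 1 to 763 lower (highest without replicate 2 labelled CD44-/-, and at most 5 otherwise). For the difference of effects, 2 genes were higher with a pseudocount of 0.01, 2 higher and 1 lower without a filter, and 1 to 5 higher and 0 to 2 lower with 1 library left out. Median-of-ratios scaling left the values as deposited. The cause of these changes was not tested. The log2 fold changes whose sign turned were called in none of the analyses run. With 1 library left out, the log2 fold change of Tie1 after UUO ranged from -0.22 to 0.017, and those of Ehd3 and Plvap after UIRI from -0.16 to 0.012 and from -0.23 to 0.0044. Differences of effects ranged from -0.29 to 0.12 for Flt1, -0.35 to 0.063 for Emcn, -0.20 to 0.031 for Plvap, -0.23 to 0.13 for Tek and -0.11 to 0.13 for Tie1, and Tie1 was -0.077 on the TPM scale. The same-numbered mice of the groups were not treated as pairs in the main fit. The correlation of their deviations was 0.08, 0.20 and 0.04 after UUO, where mice of different number gave -0.16 to 0.08. After UIRI it was -0.14, -0.03 and -0.03, where mice of different number gave -0.11 to 0.15. Not every library correlated best with its own number, and these values do not settle whether the UUO mice were paired. With 3 mice a group, no exact test of a single gene could go below 0.1.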
